A study of Mus musculus with 48 samples.

Results

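TRBV2, TRBV3 and TRBV5 are 3 V segments from the 5′ part of the mouse T cell receptor beta (TCRβ) locus, known in the older nomenclature as Vβ4, Vβ16 and Vβ1. Their members were all rows of the deposited clone lists whose V segment was one of the 3, which gave 148205 of 959731 rows over 48 libraries: 20747 rows for TRBV2, 75013 for TRBV3 and 52445 for TRBV5. A clone was one V segment, one J segment and one CDR3 nucleotide sequence. The members made up 22646 of 130732 rows in CD4+ tumor libraries, 56188 of 395310 in CD8+ tumor libraries, 28320 of 126084 in CD4+ lymph node libraries and 41051 of 307605 in CD8+ lymph node libraries.

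The libraries came from 4 female C57BL/6 mice (C57BL/6J in the study's methods), 8 weeks old at the start, which carried a Lewis lung carcinoma (LLC, a transplantable mouse lung tumor line) under the skin on each side of the back. On day 13 each tumor was cut into 2 fragments, which were sorted and sequenced separately, and the brachial lymph node draining each side (dLN) was taken as well. Tumor T cells were TCRβ+ CD4+ or CD8+ cells that an intravascular antibody had not reached and that lacked CD11b, B220, NK1.1 and Ter119, with no selection on CD44. T cells of the dLN were the CD44hi fraction of CD4+ or CD8+ cells, so the tissue and the CD44 gate cannot be told apart in any comparison of tumor with dLN. The 4 groups were therefore CD4+ tumor, CD8+ tumor, CD4+ dLN and CD8+ dLN, each with 4 mice, labelled 5 to 8 in the study. The same 4 mice supplied all groups, a single tumor line was used, and no tumor-free or treated mice were included in the comparisons.

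Each developing T cell joins one V, one D and one J segment to build the TCRβ chain. Enzymes trim the segment ends and add untemplated bases at the joins, so the junction (the third complementarity determining region, CDR3) differs from clone to clone and mostly contacts the peptide, while the part encoded by V alone mostly contacts the MHC molecule. CD4+ cells recognise MHC class II and CD8+ cells MHC class I, and a V segment can enter the subsets unequally before any antigen is met. Later, a share of reads also reflects how far single clones have grown, which a share of distinct clones does not.

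The segments lie on the forward strand of chromosome 6 (GRCm38, GENCODE): Trbv2 at chr6:41047340-41047995, Trbv3 at chr6:41048290-41048828, 0.295 kb further on, and Trbv5 at chr6:41062332-41062803. Trbv2 starts 486 kb before the D segment Trbd1, Trbv3 485 kb and Trbv5 471 kb before it. The 3′ ends of the germline V exons are shown because the CDR3 starts inside them. Capitals mark the bases that lie in the CDR3, from the codon of the conserved cysteine on.
TRBV2: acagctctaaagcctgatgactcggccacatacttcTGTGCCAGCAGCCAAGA
TRBV3: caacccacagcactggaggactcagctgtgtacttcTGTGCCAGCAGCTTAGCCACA
TRBV5: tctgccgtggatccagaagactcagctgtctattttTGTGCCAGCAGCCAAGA
The CDR3 parts of TRBV2 and TRBV5 were identical over all 17 bases. The CDR3 part of TRBV3 was annotated as 21 bases, but its last 4 bases occurred in a mean of 0.0021% to 0.019% of TRBV3 clones per group, so the 3 segments were compared over the first 17 bases. The D segments, which fill the middle of the junction, are rich in G.
Trbd1: gggacagggggc
Trbd2: gggactgggggggc
The first has 12 bases at chr6:41533201-41533212 and the second 14 bases at chr6:41542163-41542176.

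Libraries held 326582 to 4840722 deposited reads. Reads were drawn at random to 6 per sorted cell, which left 131070 to 2035380 reads and 3585 to 47119 clones per library. The reads carried no molecular identifiers, so intervals and detection floors cover counting error only, and in a share of reads more cells of a clone and more receptor RNA per cell cannot be told apart. For each mouse the 2 fragments of a tumor were summed and the left and right sides averaged, so n = 4 mice throughout. Of 26 V segments in the lists, 22 passed the filter on low values, the 3 members among them, and were tested together with limma on log2 percentages. Each group entered several of the contrasts.

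TRBV5 took a larger share of reads in CD8+ than in CD4+ tumor repertoires. In CD8+ tumor repertoires of mice 5, 6, 7 and 8 it took 12.3%, 7.24%, 8.81% and 9.50% of reads (9.46% ± 2.12, SD, n = 4), rank 3 of the 22 segments. In CD4+ tumor repertoires the values were 5.80%, 5.28%, 5.36% and 5.19% (5.41% ± 0.270, rank 7). Every CD8+ value lay above every CD4+ value. The difference was 0.78 on the log2 scale (SE 0.17), 1.72-fold, with an adjusted p of 0.0012 (limma over the 22 segments). In the CD44hi cells of the dLN the order was the opposite one. There TRBV5 took 4.28%, 4.43%, 4.27% and 4.30% of CD8+ reads (4.32% ± 0.074, rank 14) and 8.89%, 8.99%, 8.97% and 9.58% of CD4+ reads (9.11% ± 0.321, rank 3). The groups again did not overlap, and the CD8+ minus CD4+ difference was -1.07 (SE 0.17, limma adjusted p = 7.01e-05). The difference between the subset contrasts of tumor and dLN was 1.85 (SE 0.24, limma adjusted p = 1.51e-05), rank 2 of the 22 segments after TRBV26, at 2.35.

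TRBV2 was the rarest member by reads in the mean of each group, but not in the CD8+ tumors of mouse 5, where TRBV3 took less. It took 2.39%, 1.04%, 2.29% and 1.11% of CD8+ tumor reads in mice 5, 6, 7 and 8 (1.71% ± 0.733, rank 19 of 22) and 1.43%, 1.21%, 1.06% and 1.67% of CD4+ tumor reads (1.34% ± 0.268, rank 18). The ranges overlapped, and the CD8+ minus CD4+ difference of 0.26 (SE 0.26) had a 95% interval from -0.30 to 0.82 and an adjusted p of 0.411 in limma, and without mouse 7 it was -0.02. In the dLN, TRBV2 took 0.861%, 0.837%, 0.848% and 0.884% of CD8+ reads (0.857% ± 0.020) and 1.94%, 1.69%, 1.71% and 1.96% of CD4+ reads (1.82% ± 0.145). All 4 CD8+ values were below all CD4+ values, with a difference of -1.08 (SE 0.26, limma adjusted p = 0.0025). The subset contrast therefore differed between tumor and dLN for TRBV2 as well, by 1.34 (SE 0.37, limma adjusted p = 0.0093), a call that was lost without mouse 5 (1.15).

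TRBV3 was the most common member in CD4+ tumors, where it took 6.98%, 7.54%, 8.72% and 7.70% of reads (7.73% ± 0.725, rank 3). In CD8+ tumors the mice were far apart, at 1.55%, 2.05%, 7.79% and 3.31% (3.67% ± 2.84, rank 9). Mouse 7 alone reached the CD4+ range. The difference was -1.35 (SE 0.35, limma adjusted p = 0.0038), but the exact permutation test gave p = 0.114 and the call was lost without mouse 6 (-1.18, limma adjusted p = 0.0563). In each mouse the CD8+ value was below the CD4+ value, a pairing that the exact test did not use. In the dLN, TRBV3 took 5.67%, 5.66%, 5.79% and 5.39% of CD8+ reads (5.63% ± 0.170) and 7.80%, 8.68%, 9.17% and 9.09% of CD4+ reads (8.68% ± 0.630). These groups did not overlap. The dLN difference of -0.62 (SE 0.35) had an adjusted p of 0.164 in the fit over all groups and of 5.55e-06 in the fit of the 2 dLN groups alone. No difference between the subset contrasts was called for TRBV3 (-0.73, SE 0.50, limma adjusted p = 0.241), but it was called without mouse 7 (-1.14, limma adjusted p = 0.0203) and without the largest clone of each segment (-0.88, limma adjusted p = 0.013), and without single mice it ranged from -1.14 to -0.41.

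**Figure D1:**
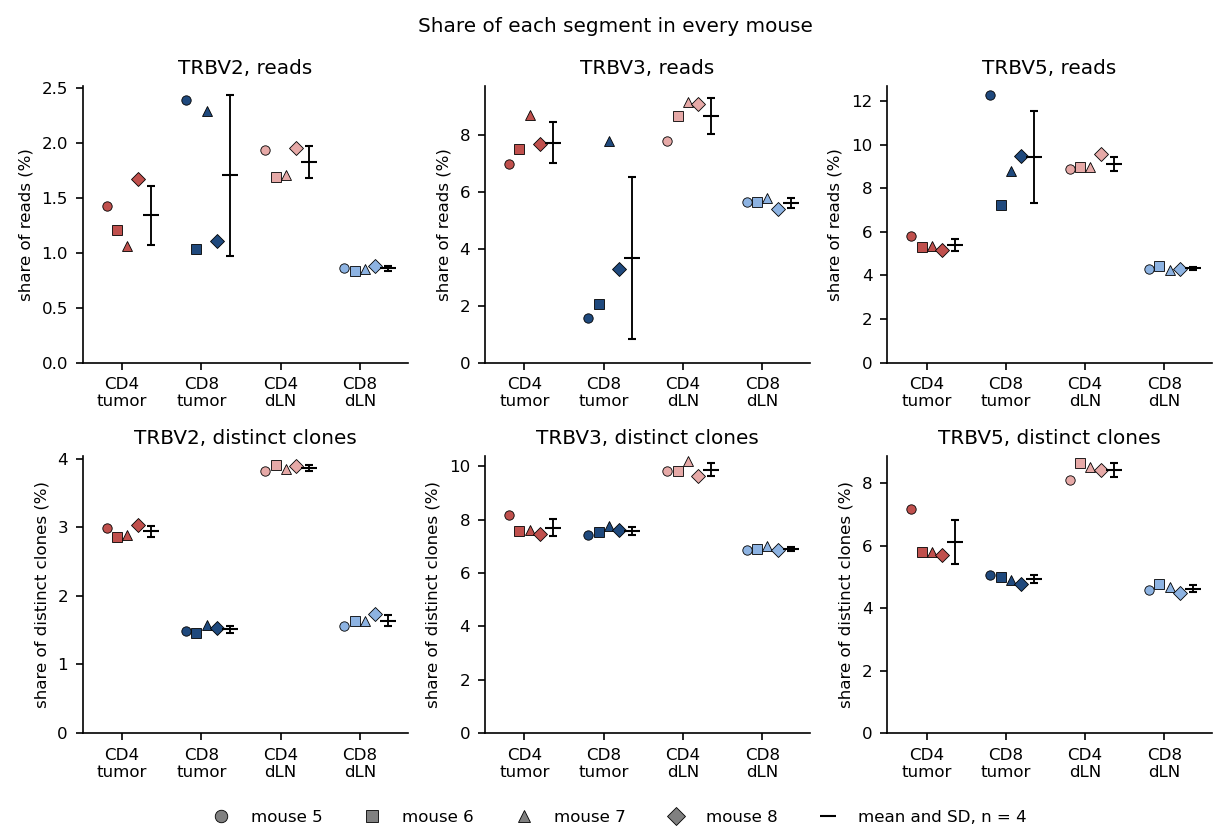
Share of each repertoire taken by TRBV2, TRBV3 and TRBV5, as percent of reads and as percent of distinct clones, in CD4+ and CD8+ cells of tumor and dLN. Points are the 4 mice (mean of left and right) and bars mark the mean with SD. TRBV5 reads in CD8+ tumors (7.24% to 12.3%) lie above the other 3 groups except for the CD4+ dLN, whose values they surround.

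By reads, 2 of the 3 members were called between CD8+ and CD4+ tumors, against 12 of all 22 segments (54.5%), and 2 of 3 in the dLN against 10 of 22 (45.5%). For the difference of these contrasts 2 members were called, against 9 of 22 (40.9%). The fit shared one spread over the 4 groups, although the CD8+ tumor repertoires varied most between mice. In a fit of the 2 tumor groups alone, adjusted p rose to 0.0681 for TRBV5 and 0.0542 for TRBV3, and 3 rather than 12 segments were called. For TRBV5 the exact permutation p was 0.0286, the smallest that 4 against 4 values can give. This test took the groups as unpaired, although the same 4 mice supplied both.

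Between tissues, TRBV5 moved in opposite directions in the subsets. Its share of CD8+ reads was 2.15-fold higher in tumor than in dLN, with no overlap (1.10 on the log2 scale, SE 0.17, limma adjusted p = 5.17e-05, and 0.0118 in the fit of the 2 CD8+ groups alone). Its share of CD4+ reads was 1.68-fold lower in tumor (-0.75, SE 0.17, limma adjusted p = 0.0052), also with no overlap, but the call was lost without mouse 8 (-0.71, limma adjusted p = 0.127). TRBV2 rose in CD8+ tumors by 0.88 (SE 0.26, limma adjusted p = 0.0098). For TRBV2 no CD8+ tumor fell into the dLN range, yet the adjusted p was 0.0627 in the limma fit of the 2 groups alone and 0.107 without mouse 5 (0.69). In CD4+ cells the TRBV2 difference of -0.46 was not called by limma (adjusted p = 0.370), while the groups did not overlap. TRBV3 fell by 0.90 in CD8+ tumors (SE 0.35, limma adjusted p = 0.0363). That call was lost in the fit of the 2 CD8+ groups (adjusted p = 0.137), in the limma fit on centred log ratios (-0.57, adjusted p = 0.114) and without mouse 5 (-0.58), mouse 6 (-0.71) or mouse 8 (-0.97). The exact permutation test of the -0.90 gave p = 0.143. In CD4+ cells TRBV3 differed by -0.17 (limma adjusted p = 0.945). All 3 members were called in CD8+ cells, against 16 of 22 segments (72.7%), and 1 in CD4+ cells, against 2 of 22 (9.09%). In CD8+ cells 5 segments were higher and 11 lower in tumor with a median difference of -0.70 over all 22 segments, and after centring 5 were higher and 5 lower. On the centred scale the CD8+ differences were 1.21 for TRBV2 and 1.43 for TRBV5, both called.

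Counting each clone once gave another order of the groups for TRBV5. TRBV5 made up 7.17%, 5.78%, 5.78% and 5.70% of distinct clones in CD4+ tumors (6.11% ± 0.710) and 4.76% to 5.04% in CD8+ tumors (4.92% ± 0.124). By clones TRBV5 was thus lower in CD8+ than in CD4+ tumors, with a log2 difference of -0.30 (SE 0.06, limma adjusted p = 0.000106), whereas by reads it was higher. In the dLN it made up 4.62% ± 0.119 of CD8+ clones and 8.41% ± 0.227 of CD4+ clones, a difference of -0.86 (SE 0.06). TRBV2 made up 1.46% to 1.57% of CD8+ tumor clones against 2.86% to 3.03% of CD4+ tumor clones, with no overlap (-0.96, SE 0.04, limma adjusted p = 7.75e-14). Its dLN difference was -1.23, from 1.64% ± 0.077 in CD8+ to 3.87% ± 0.043 in CD4+ cells. TRBV3 made up 7.58% ± 0.143 of CD8+ and 7.70% ± 0.319 of CD4+ tumor clones, and the difference of -0.02 had a 95% interval from -0.10 to 0.05. At equal depth this difference was -0.14 and called (limma adjusted p = 0.00238), and without mouse 5 it was 0.02. In the dLN, TRBV3 differed by -0.51, from 6.90% ± 0.079 to 9.87% ± 0.241.

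By clones, 2 members were called between the tumor subsets, against 19 of 22 segments (86.4%), and 3 between the dLN subsets, against 21 of 22 (95.5%). Nearly every segment was thus called and the members did not stand apart by their number. At the ends of the range were TRBV12-2, at 2.74 in tumor and 2.01 in dLN, and TRBV31, at -1.16 and -1.61, while TRBV2 had ranks 19 and 21 of 22. The contrast of the subsets was less negative in tumor than in dLN for each member: by 0.28 (SE 0.05) for TRBV2, 0.49 (SE 0.05) for TRBV3 and 0.56 (SE 0.08) for TRBV5. All 3 were called, against 15 of 22 (68.2%), but at equal depth the TRBV2 value fell to 0.11 and was no longer called. The CD4+ side moved more. In CD4+ cells the tumor share of clones was lower than the dLN share by -0.39, -0.36 and -0.47 for TRBV2, TRBV3 and TRBV5, all called, against 18 of 22 segments (81.8%). In CD8+ cells the differences were -0.11 for TRBV2 (limma adjusted p = 0.0207, exact permutation p = 0.0571, call lost without any one of mice 6, 7 and 8, at -0.10, -0.13 and -0.09), 0.13 for TRBV3 (limma adjusted p = 0.00535) and 0.09 for TRBV5 (limma adjusted p = 0.154), with 2 members called against 12 of 22 (54.5%). At equal depth the TRBV3 difference was 0.03 and not called.

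**Figure D2:**
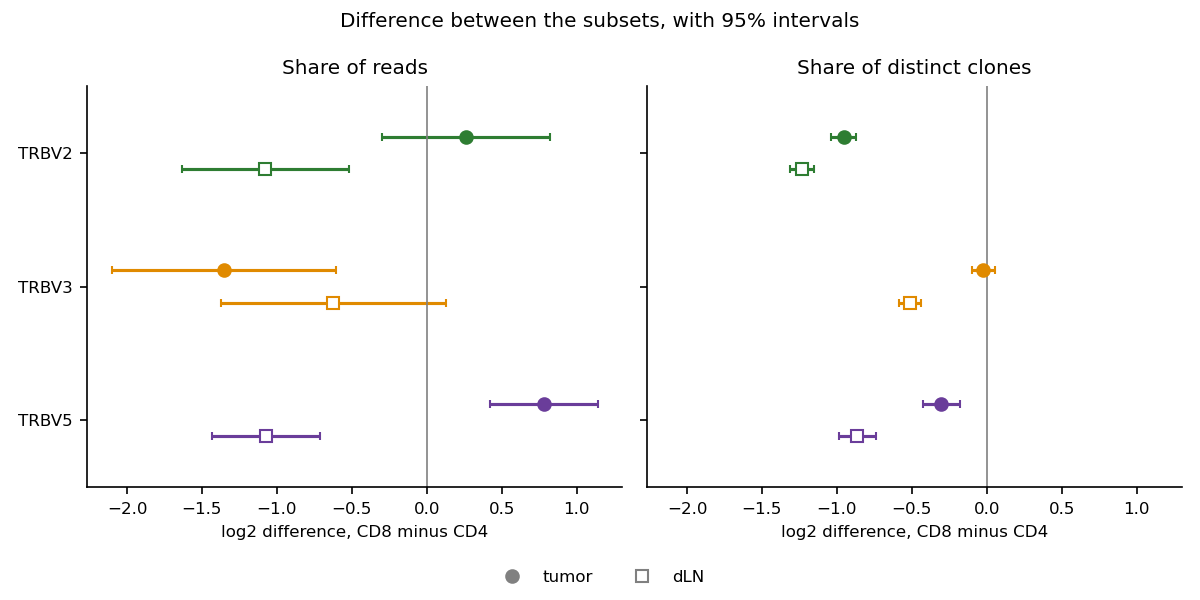
Difference between CD8+ and CD4+ cells on the log2 scale for TRBV2, TRBV3 and TRBV5, by reads (left panel) and by distinct clones (right panel). Filled circles are tumor, open squares dLN, and bars the 95% intervals of the limma fit. TRBV5 lies at 0.78 by reads and -0.30 by clones in tumor, and at -1.07 and -0.86 in dLN.

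Dividing the share of reads by the share of clones gives the size of a segment's clones relative to the average clone. In CD8+ tumors the quotient for TRBV5 was above 1 in every mouse (2.44, 1.45, 1.80 and 1.996). For TRBV2 it was 1.61, 0.709, 1.46 and 0.724, above 1 in mice 5 and 7 only. For TRBV3 it was 0.209, 0.272, 1.01 and 0.434. In the other groups TRBV2 clones were small, with mean quotients of 0.455 (CD4+ tumor), 0.472 (CD4+ dLN) and 0.524 (CD8+ dLN). The group means there were 0.891 to 1.08 for TRBV5 and 0.815 to 1.01 for TRBV3.

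Few clones carried the CD8+ tumor reads of TRBV2 and TRBV5 in every mouse, and those of TRBV3 in some tumors. The number of top clones needed to reach 50% of a segment's reads in mice 5, 6, 7 and 8 was 1, 2.5, 2 and 3 for TRBV2 and 2, 3, 1.5 and 2 for TRBV5, where decimals come from averaging sides. For TRBV3 it was 1 on both sides of mice 7 and 8, 2 (left tumor) and 99 (right tumor) in mouse 6, and 159 and 174 in mouse 5. TRBV3 reads were thus spread over many clones in both tumors of mouse 5 and in the right tumor of mouse 6. In CD8+ dLN the means were 122, 513 and 335 clones for TRBV2, TRBV3 and TRBV5, and in CD4+ tumors 21.8, 25.9 and 35.4. The largest TRBV3 clone held 12.4%, 39.6%, 62.7% and 55.7% of TRBV3 reads in the CD8+ tumors. The largest TRBV5 clone held 45.5%, 28.0%, 47.9% and 41.5% of TRBV5 reads there.

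Clones at 1% or more of a tumor repertoire are shown by sequence, because they are the largest clones behind these shares. There were 14 among the 3 segments, of which 13 were in CD8+ cells (1 TRBV2, 2 TRBV3 and 10 TRBV5, of 78 over all V segments) and 1 in CD4+ cells (TRBV3, of 14). Among TRBV5 clones none reached 1% in a CD4+ tumor. TRBV5 clones of that size took 8.49%, 2.80%, 5.79% and 5.90% of all CD8+ tumor reads in mice 5, 6, 7 and 8 (5.75% ± 2.33). In the CDR3 sequences, lower case marks the bases assigned to V at the start and to J at the end, and capitals the bases between, which hold the D segment and added bases.
TRBV5, mouse 5, TRBJ2-3: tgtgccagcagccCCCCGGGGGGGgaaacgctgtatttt
TRBV5, mouse 5, TRBJ2-3: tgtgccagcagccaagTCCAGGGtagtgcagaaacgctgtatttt
TRBV5, mouse 5, TRBJ2-5: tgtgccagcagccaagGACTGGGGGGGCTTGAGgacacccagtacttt
TRBV5, mouse 5, TRBJ2-7: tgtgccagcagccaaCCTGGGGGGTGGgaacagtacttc
TRBV5, mouse 6, TRBJ2-3: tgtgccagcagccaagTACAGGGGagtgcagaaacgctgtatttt
TRBV5, mouse 6, TRBJ2-3: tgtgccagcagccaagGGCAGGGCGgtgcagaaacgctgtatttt
TRBV5, mouse 7, TRBJ1-3: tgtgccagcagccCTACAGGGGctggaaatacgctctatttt
TRBV5, mouse 7, TRBJ2-1: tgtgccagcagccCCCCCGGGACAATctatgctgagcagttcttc
TRBV5, mouse 8, TRBJ1-1: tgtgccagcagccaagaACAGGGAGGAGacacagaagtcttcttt
TRBV5, mouse 8, TRBJ1-4: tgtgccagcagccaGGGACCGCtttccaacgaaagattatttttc
TRBV3, mouse 7, TRBJ2-7: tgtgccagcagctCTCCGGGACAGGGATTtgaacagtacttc
TRBV3, mouse 8, TRBJ2-7: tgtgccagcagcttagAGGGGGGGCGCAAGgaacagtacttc
TRBV2, mouse 5, TRBJ2-3: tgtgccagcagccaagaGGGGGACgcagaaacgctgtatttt
TRBV3 of CD4+ cells, mouse 7, TRBJ2-7: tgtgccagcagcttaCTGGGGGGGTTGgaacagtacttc

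The largest TRBV5 clone of each mouse was large on both sides. In mouse 5 the first sequence above made up 5.73% of the left and 5.46% of the right CD8+ tumor repertoire (95% Wilson intervals on estimated cells 5.63% to 5.83% and 5.35% to 5.57%). In mouse 7 the TRBJ1-3 clone made up 3.74% and 4.73%, and in mouse 8 the TRBJ1-1 clone 3.65% and 4.24%. In mouse 6 the largest one made up 1.96% and 2.09%. The remaining 6 TRBV5 clones lay between 0.583% and 2.19% on either side. The intervals of left and right were separate for several of these clones, while the fragments of one tumor differed by as much, for example 5.52% and 3.55% in the right tumor for the TRBJ1-1 clone of mouse 8.

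The shares of these clones in the dLN are a description, since the clones were chosen for a high share in the tumor. The TRBJ1-3 clone of mouse 7 had 0 reads in both nodes, which allows shares of up to 0.000825% and 0.000561%. The TRBJ1-1 clone of mouse 8 had 0 reads on the left (up to 0.000767%) and 8 on the right. The TRBJ2-5 clone of mouse 5 reached the highest dLN share of the 10 on the left side, 0.138%, against 1.27% in the left tumor. In the other subset of the same tumor their highest share was 0.0109%, and in any library of another mouse 0.00118%. Of the 14 sequences, the second of mouse 5 and the first of mouse 6 encode the same CDR3 amino acids with the same J segment from different nucleotides.

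The largest TRBV3 clone of mouse 7 made up 5.30% of the left and 4.49% of the right CD8+ tumor repertoire, and had 3 and 10 reads in the nodes. It held 62.7% of the TRBV3 reads of that mouse, whose TRBV3 share was the highest of the 4. The TRBV3 clone of mouse 8 made up 1.67% and 2.02%. With the largest clone of each V segment left out, the TRBV3 difference between CD8+ and CD4+ tumors was -1.51 rather than -1.35, and that of TRBV5 0.65 rather than 0.78, both still called by limma. The TRBV2 clone of mouse 5 made up 1.26% and 1.24%, with 72 and 6 reads in the nodes, and held 52.3% of that mouse's TRBV2 reads. The CD4+ TRBV3 clone of mouse 7 made up 1.93% and 1.55% of the CD4+ tumor repertoire and 0.165% and 0.0353% of the CD4+ dLN repertoire. The CD4+ TRBV2 clone with the highest mean over both sides, in mouse 5, made up 0.140% and 0.174%. The CD4+ TRBV5 clone with the highest mean over both sides, also in mouse 5, made up 0.368% and 0.321%, while the highest share on a single side was 0.574%, in mouse 7.

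At the lower level of 0.1% on either side, TRBV5 had 37 of 329 CD8+ clones, TRBV2 15 and TRBV3 8. Per 1000 distinct clones this was 2.95 for TRBV2, 2.28 for TRBV5 and 0.324 for TRBV3, against 1.01 over all V segments. In CD4+ tumors TRBV3 had 60 of 681 such clones, TRBV5 36 and TRBV2 5, or 9.93, 7.64 and 2.15 per 1000 distinct clones against 8.25 over all. The order of the 3 members was thus not the same in the subsets. TRBV2 was the highest of the 3 in CD8+ and the lowest in CD4+ cells, and TRBV3 the reverse. The CD4+ value of TRBV3 was, however, near that over all V segments. The highest of all V segments were TRBV26 in CD8+ cells (4.66) and TRBV1 in CD4+ cells (21.5). The member clones at this level were chosen for their size in either tumor. All of them except 1 CD8+ TRBV3 clone of mouse 8 had reads on both sides. Over all V segments the same held for 327 of 329 CD8+ and 681 of 681 CD4+ clones. In the dLN, 11 of the 15 TRBV2, 7 of the 8 TRBV3 and 26 of the 37 TRBV5 clones were found, against 5 of 5, 57 of 60 and 33 of 36 in CD4+ cells.

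**Figure D3:**
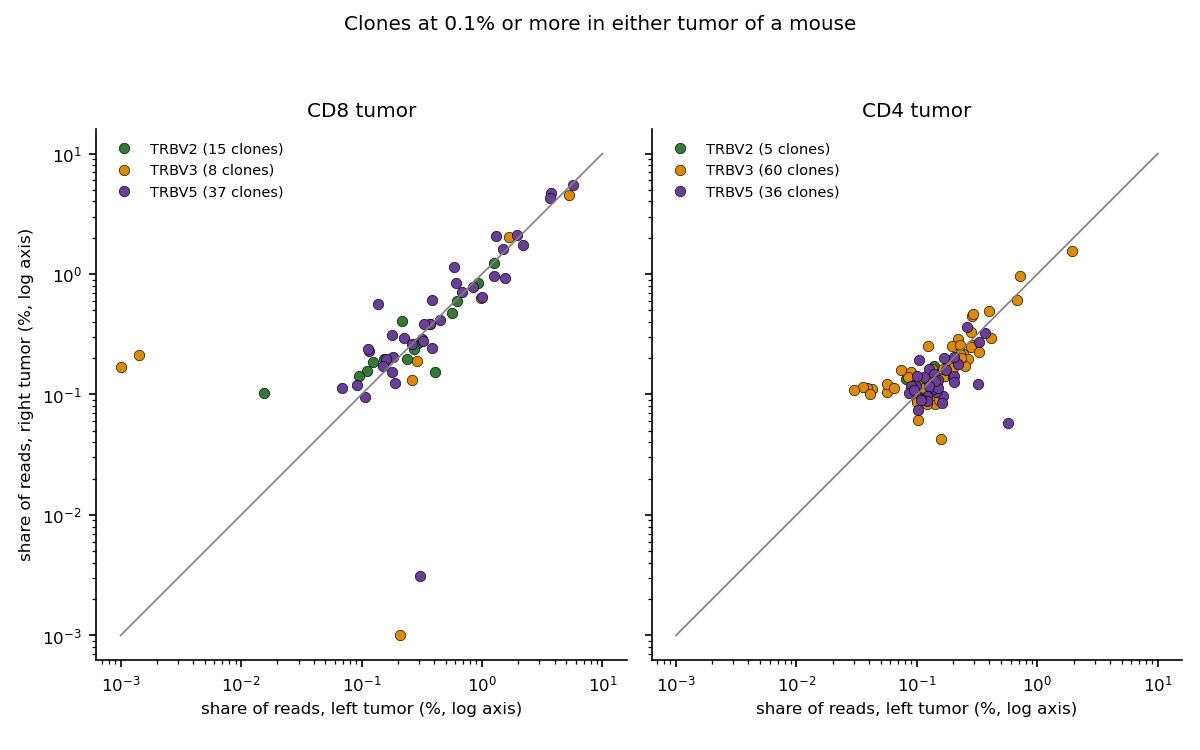
Share of the left tumor (horizontal axis) and right tumor (vertical axis), both as percent of reads on log scales, for each TRBV2, TRBV3 and TRBV5 clone at 0.1% or more of a tumor repertoire, in CD4+ and CD8+ cells. Shares under 0.001% are drawn at 0.001%, and most clones lie near the diagonal, with median left-to-right folds of 1.21, 1.77 and 1.27 for CD8+ TRBV2, TRBV3 and TRBV5.

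Some large clones were one-sided. Of the CD8+ clones at 0.1% or more, 4 of the 8 TRBV3 clones differed more than 2-fold between the sides, 2 of the 15 TRBV2 clones and 3 of the 37 TRBV5 clones. In CD4+ cells these counts were 9 of 60, 0 of 5 and 2 of 36. In CD8+ cells, TRBV3 clones stood at 0.000184% (left) and 0.169% (right) in mouse 6, at 0.00142% and 0.212% in mouse 8, and at 0.208% with no read on the other side in mouse 8. For TRBV5 a CD8+ clone of mouse 5 stood at 0.309% and 0.00311%, and a CD4+ clone of mouse 7 at 0.574% and 0.0575%. Over all clones, left and right tumors were compared by the percentage of a segment's reads that belonged to clones found on both sides, taken as the geometric mean over the sides. It was 91.4% ± 3.50 for TRBV5 and 90.2% ± 3.06 for TRBV2 in CD8+ tumors. For TRBV3 it was 40.8%, 57.2%, 77.3% and 70.9% in mice 5, 6, 7 and 8, against 82.5% ± 6.47 for all V segments together. In CD8+ dLN the same measure was 6.53%, 7.79% and 8.42% for TRBV2, TRBV3 and TRBV5. In CD4+ cells it was 82.7%, 87.5% and 84.5% in tumor and 42.5%, 50.6% and 48.4% in dLN. Tumor and dLN did not overlap for any of the 6 segment and subset pairs (exact permutation p = 0.0286 each, adjusted over the 6 also 0.0286). The same held for 22 of the 22 segments tested in CD4+ cells (100%) and 20 of 22 in CD8+ cells (90.9%), so the lack of overlap was common to nearly all segments. By the size of the difference in CD8+ cells, TRBV2 (83.7 points) and TRBV5 (83.0 points) had ranks 1 and 2 of the 22 and TRBV3 rank 12, against a median of 55.2 points, and in CD4+ cells the members had ranks 10 to 15. Over all V segments together the mean was 84.5% in tumor and 47.7% in dLN for CD4+ cells, and 9.52% in dLN for CD8+ cells.

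Left and right tumors of a mouse were also compared in how much they used each segment. The mean absolute log2 ratio of left to right read shares of TRBV3 in CD8+ tumors was 0.14 within mice and 1.28 between mice (exact one-sided permutation p = 0.0417, the smallest that 24 pairings allow, adjusted p = 0.125 over 6 tests). For TRBV5 in CD8+ tumors the values were 0.09 and 0.41 (exact permutation p = 0.0833), and for TRBV2 0.21 and 0.80 (exact permutation p = 0.125). In CD4+ tumors none of the members had an exact permutation p below 0.0833, and for TRBV5 the ratio was 0.08 within and 0.10 between mice (exact permutation p = 0.417). None of the 6 tests passed after adjustment, with adjusted p from 0.125 to 0.417.

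The CDR3 of TRBV2 and TRBV5 was long. Mean lengths over distinct clones were 14.8, 14.3 and 14.6 amino acids for TRBV2, TRBV3 and TRBV5 in CD8+ tumors, and 14.4, 13.8 and 14.4 in CD4+ tumors. TRBV2 had rank 1 and TRBV5 rank 2 of 22 segments in CD8+ tumors, and their order was reversed in CD4+ tumors. TRBV3 had rank 6 in CD8+ and rank 12 in CD4+ tumors. The values varied little, for TRBV2 from 14.77 to 14.85 over the CD8+ tumors of the 4 mice and from 14.38 to 14.41 over the CD4+ tumors.

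All 3 members had a longer CDR3 in CD8+ than in CD4+ tumors, with no overlap between the groups. The difference was 0.42 amino acids for TRBV3 (SE 0.02, limma adjusted p = 2.20e-10), the highest of the 22 segments, 0.41 for TRBV2 (SE 0.02) and 0.11 for TRBV5 (SE 0.02, limma adjusted p = 0.000438), against a median of 0.22 over all segments and 17 of 22 called (77.3%). In the dLN TRBV3 was again highest, at 0.49, TRBV2 differed by 0.36 and TRBV5 by 0.03 (limma adjusted p = 0.207, 95% interval -0.01 to 0.08), so 2 members were called against 15 of 22 (68.2%). CD8+ tumor clones were longer than CD8+ dLN clones by 0.14, 0.09 and 0.09 for TRBV2, TRBV3 and TRBV5, all called, against 13 of 22 (59.1%). The TRBV3 call was lost without mouse 6 (0.07, limma adjusted p = 0.0756). CD4+ tumor clones were longer than CD4+ dLN clones by 0.09 for TRBV2 and 0.17 for TRBV3, both called, and differed by 0.01 for TRBV5, against 10 of 22 (45.5%). With clones weighted by reads, the TRBV5 difference between CD8+ and CD4+ tumors was -0.12 and the directions of several tissue differences turned. The calls of TRBV2 in dLN (0.31, limma adjusted p = 0.514) and of TRBV2 (0.31, limma adjusted p = 0.381) and TRBV3 (0.04, limma adjusted p = 0.840) in CD8+ tumor against dLN were lost under that weighting, so the lengths describe distinct clones.

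The extremes of the length distribution showed where the segments differed. In CD8+ and CD4+ tumors, 30.6% and 17.4% of TRBV2 clones had 16 or more amino acids, 14.4% and 8.44% of TRBV3 clones, and 22.5% and 19.5% of TRBV5 clones. The corresponding dLN values were 25.5% and 13.3%, 13.1% and 5.86%, and 21.8% and 18.2%. All 6 comparisons had no overlap between mice (exact permutation p = 0.0286, adjusted p = 0.0343 over 42 tests of junction measures). Over all 22 segments, 16 (72.7%) did not overlap in tumor and 15 (68.2%) in dLN, with 15 and 14 of them higher in CD8+ cells, and median differences of 3.21 and 2.71 percentage points. TRBV2 had the highest difference of the 22 in both tissues. Clones of 12 or fewer amino acids were rarer in CD8+ cells for TRBV3, at 7.80% against 14.9% in tumor and 8.93% against 18.2% in dLN (same p), while 11 of 22 segments (50%) did not overlap in tumor and 14 (63.6%) in dLN, in either direction. For TRBV2 the short clones were 5.92% in CD8+ and 8.37% in CD4+ tumors (exact permutation p = 0.0286), and 7.62% and 7.55% in dLN (exact permutation p = 0.971). For TRBV5 the short clones were 7.12% and 7.85% in tumor (exact permutation p = 0.114), and in dLN they were the more common ones in CD8+ cells, at 9.25% against 6.77%.

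**Figure D4:**
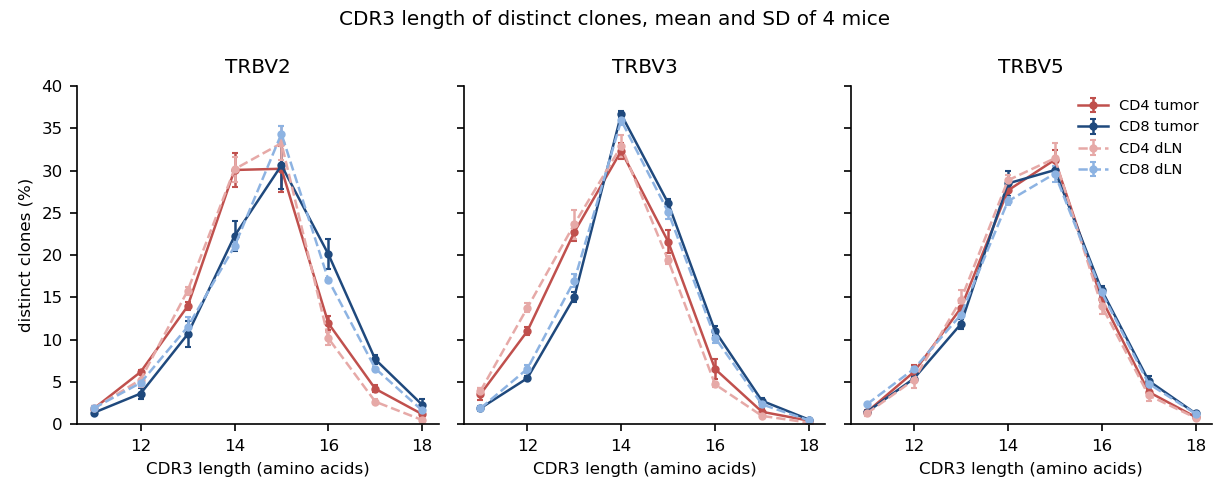
Distribution of CDR3 length in amino acids over the distinct clones of TRBV2, TRBV3 and TRBV5, as percent of the segment's clones (points, mean of 4 mice, with bars for the SD), in the 4 groups. The CD8+ curves of TRBV2 and TRBV3 are shifted to longer CDR3s than the CD4+ curves, while those of TRBV5 lie close together.

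TRBV2 and TRBV5 have the same germline CDR3 end but kept it unequally. The complete 17 bases remained in 58.7%, 54.4%, 53.1% and 54.1% of TRBV2 clones in the CD8+ tumors of mice 5, 6, 7 and 8, and in 46.8%, 42.9%, 40.9% and 39.3% in CD4+ tumors. All CD8+ values were above all CD4+ values. For TRBV5 the order was turned round, with 31.4%, 28.8%, 28.7% and 28.9% in CD8+ tumors and 46.2%, 43.7%, 43.3% and 42.7% in CD4+ tumors. The dLN gave 58.6% ± 1.38 (CD8+) and 41.9% ± 2.65 (CD4+) for TRBV2, and 34.6% ± 0.172 and 45.5% ± 1.48 for TRBV5. V segments other than the 3 members were not measured for their germline end. Each of these 4 comparisons had an exact permutation p of 0.0286 (adjusted p = 0.0343 over 42 tests).

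The distance between the segments follows from these values and is a description. TRBV2 minus TRBV5 was 25.6 ± 1.21 percentage points in CD8+ tumors and -1.52 ± 1.73 in CD4+ tumors, and 24.04 ± 1.32 and -3.54 ± 2.01 in the dLN (SD, n = 4). In CD4+ cells the means of the segments were within a few points of each other, and in CD8+ cells every TRBV2 value was above every TRBV5 value. The complete end encodes the residues Gln and, with the next base, Glu or Asp after the invariant start of the CDR3. TRBV3, whose end has other bases after the shared start, kept its first 17 bases in 4.94% of CD8+ and 5.69% of CD4+ tumor clones. For all 3 segments more bases lay between V and J in CD8+ than in CD4+ tumor clones, with means of 9.98 and 9.24 for TRBV2, 10.4 and 9.35 for TRBV3, and 10.2 and 9.41 for TRBV5 (exact permutation p = 0.0286, adjusted p = 0.0343). Over all segments 17 of 22 (77.3%) did not overlap, 16 of them higher in CD8+ cells, with a median difference of 0.59 bases. TRBV3 had rank 2 of the 22 in tumor and rank 1 in dLN, while TRBV2 and TRBV5 had ranks 10 and 8 in tumor. A V base that the deposited alignment assigned may also be an added base that happened to match.

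**Figure D5:**
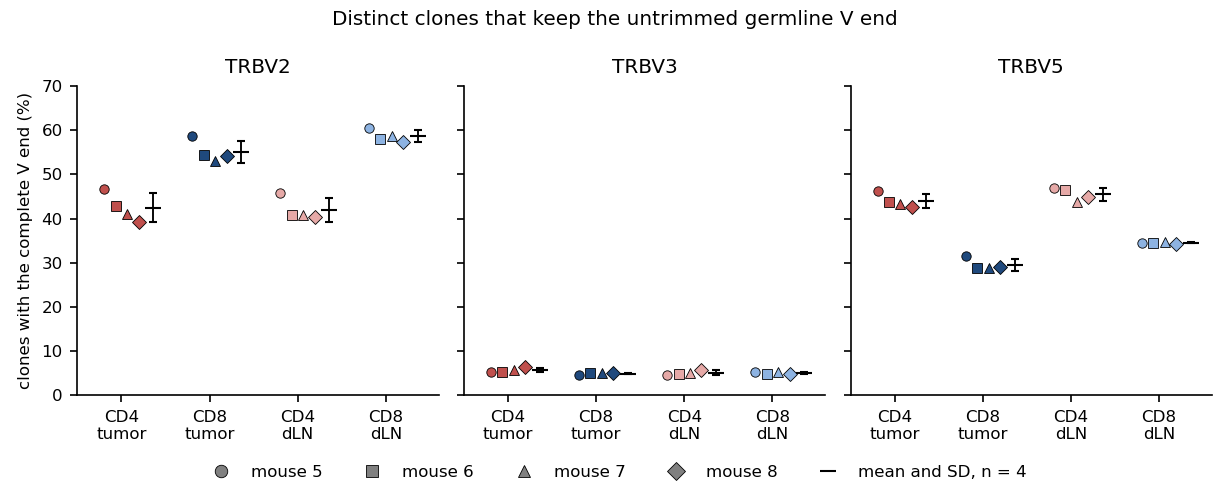
Percent of distinct clones of TRBV2, TRBV3 and TRBV5 that kept the first 17 germline bases of the V part of the CDR3, for each mouse in the 4 groups, with mean and SD. In CD8+ cells TRBV2 lies between 53.1% and 60.5% and TRBV5 between 28.7% and 34.8%, whereas in CD4+ cells both lie between 39.3% and 46.9%.

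How often TRBV2 and TRBV3 were joined to a TRBJ1 segment also differed between the subsets. TRBJ1 segments, which lie upstream of the second D and J cluster, were used by 31.3% of TRBV2 clones in CD8+ tumors and 36.5% in CD4+ tumors, a difference of -5.20 percentage points (SE 1.11, limma adjusted p = 0.000637). TRBV3 differed by -5.46 points, from 32.1% to 26.6% (limma adjusted p = 1.25e-05), with no overlap between mice. TRBV5 used them in 31.8% and 32.1% of clones, and its difference of -0.31 had a 95% interval from -2.32 to 1.70. In the dLN the differences were -5.28, -2.42 and -0.43 points. The dLN call of TRBV3 was lost without mouse 6 (-2.24, limma adjusted p = 0.0787) and without mouse 8 (-2.20, limma adjusted p = 0.0613). With clones weighted by reads, neither TRBV2 (-5.40) nor TRBV3 (-0.92) was called in dLN (limma adjusted p = 0.990), nor TRBV3 in tumor (-11.4, limma adjusted p = 0.0775). Called were 2 members in tumor, against 14 of 22 (63.6%), and 2 in dLN, against 9 of 22 (40.9%). All 14 in tumor were lower in CD8+ cells, and the median difference over the 22 segments was -4.08 points. From high to low, TRBV5 had rank 3 there, TRBV2 rank 14 and TRBV3 rank 15. In dLN 8 segments were called lower and 1 higher, with a median of -1.60 points. Between tumor and dLN no member was called in CD8+ cells, against 2 of 22 (9.09%), nor in CD4+ cells, against 1 of 22 (4.55%). At an unadjusted p under 0.05, 5 of the 22 segments passed in each of these tissue contrasts.

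Single J segments were tested over 261 V and J pairs, 36 of them with a member. Between CD8+ and CD4+ tumors 19 of the 36 were called (5 higher and 14 lower in CD8+ cells), against 39.1% of all pairs, and between the dLN subsets 16 (5 higher and 11 lower), against 44.4%. By segment the tumor calls were 4 for TRBV2, 9 for TRBV3 and 6 for TRBV5, and the dLN calls 3, 5 and 8. In both tissues 12 pairs were called, all in the same direction in both. For TRBV2 and TRBV5, TRBJ2-1 had the largest gain of the J segments in CD8+ tumors. It was used by 17.1% ± 0.971 of TRBV2 clones in CD8+ tumors and 8.83% ± 1.18 in CD4+ tumors (0.95 on the log2 scale, SE 0.10, limma adjusted p = 5.03e-06). For TRBV5 the shares were 15.8% ± 0.803 and 9.47% ± 0.307 (0.73, SE 0.07, limma adjusted p = 1.59e-06). For TRBV3 they were 14.0% and 12.1%, a difference that was not called in tumor (0.21, limma adjusted p = 0.0671) but was in dLN, at 13.6% and 10.0% (0.45). In the dLN, TRBJ2-1 was also higher in CD8+ cells for TRBV2 (0.53) and TRBV5 (0.83).

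TRBJ2-7 was the most frequent partner of each segment in both subsets. In tumors it was used by 19.4% and 19.3% of CD8+ and CD4+ clones of TRBV2, 24.5% and 19.7% of TRBV3 (0.31, limma adjusted p = 0.00133) and 21.5% and 20.4% of TRBV5. The TRBV3 clones above 1% all used it. Pairs lower in CD8+ than in CD4+ cells in both tissues were TRBV2 with TRBJ1-2 and TRBJ1-3, TRBV3 with TRBJ1-1, TRBJ1-2, TRBJ2-2 and TRBJ2-5, and TRBV5 with TRBJ1-4, TRBJ2-2, TRBJ2-4 and TRBJ2-5. In tumor alone TRBV2 with TRBJ2-2, TRBV3 with TRBJ1-3 and TRBJ1-5, and TRBV5 with TRBJ1-3 were also called lower, and TRBV3 with TRBJ1-6 and TRBJ2-3 higher. In dLN alone TRBV5 was called lower with TRBJ2-3 and higher with TRBJ1-1 and TRBJ2-7. Whether a pair called in one tissue only differed between tissues was not tested.

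Clonotypes (one V segment, one J segment and one CDR3 amino acid sequence) were also compared between mice. Of 19849 TRBV3 clonotypes in CD8+ tumors, 136 were found in all 4 mice (0.685%), against 45 of 13796 for TRBV5 (0.326%) and 4 of 4671 for TRBV2 (0.0856%), with 0.598% over all V segments. In CD8+ dLN the shares were 0.657% for TRBV3, 0.661% for TRBV5 and 0.237% for TRBV2, against 0.783% over all. In CD4+ tumors they were 0.131%, 0.170% and 0.0465%, against 0.170%, and in CD4+ dLN 0.464%, 0.377% and 0.183%, against 0.268%. TRBV2 was lowest of the 3 in each group, and the order of TRBV3 and TRBV5 was not the same in all groups. Repertoires differ in size between segments, so these shares are a description only.

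The neighbours in the locus are given for comparison, and their difference from the members was not tested. TRBV4, which lies between TRBV3 and TRBV5, was higher in CD8+ than in CD4+ tumors by reads (1.21 on the log2 scale, limma adjusted p = 0.0107, 0.0815 in the fit of the 2 groups alone, exact permutation p = 0.0857) and by clones (0.41). By clones TRBV4 was thus opposite in sign to TRBV2 and TRBV5 between the tumor subsets. Between tissues TRBV4 differed by 1.04 by reads in CD8+ tumor against dLN (not called in the limma fit of the 2 groups alone, adjusted p = 0.0627) and by -0.44 by clones in CD4+ tumor against dLN, the same signs as TRBV2 and TRBV5, and by -0.18 by clones in CD8+ tumor against dLN, the sign of TRBV2 (-0.11) but not of TRBV5 (0.09). TRBV1, 155 kb upstream of TRBV2, differed between CD8+ and CD4+ tumors by -3.28 (SE 0.21) by reads, the lowest value of all 22 segments, and by -0.65 by clones, the same sign as TRBV2 and TRBV5.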

How the data were processed

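Libraries were prepared by the authors from sorted T cells by reverse transcription with template switching and nested PCR of the TCRβ transcript, trimmed with cutadapt 3.2 (version per the submitters' processing notes), and assembled with MiXCR against IMGT mouse segments into productive clones, separated by V and J. The deposited lists gave a read count per clone and the fraction of the library's reads it took, as the authors computed it, together with the positions where the V part ended and the J part began. A genome build was not given in the sources used here, and positions were taken from GENCODE on GRCm38. Fractions were recomputed from the counts.

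Reads were drawn without replacement to 6 per sorted cell (seed 1), with cell numbers from the study's supplementary table. The 2 fragments of a tumor were summed, and the left and right sides of a mouse averaged. V segments at 0.1% or more of distinct clones on average were tested (22 of 26), and V and J pairs at 0.01% or more (261). limma (3.58.1, R 4.3.3) was fitted to log2(percent + 0.01), for pairs log2(percent + 0.1), over all 4 groups with group as the only term, so fold changes of rare features are understated. p-values were two-sided, adjusted by the Benjamini-Hochberg method over all segments or pairs of a contrast, and called under 0.05. Exact permutation tests over 4 against 4 values (70 splits) cannot go below 0.0286. These tests and the main fit took the groups as unpaired, although the same 4 mice supplied all groups, so their p-values leave out the pairing. Rows of the clone lists were pooled over nucleotide CDR3 sequences as deposited, with Python 3.11.15 and pandas 2.3.3. The fit was also run on simulated clone shares with the same spread for all segments and groups. That run does not cover read shares, whose spread differed between groups. The labels tie samples to mice 5 to 8, so numbers pair samples of one animal. Over 12 deviations of segment and mouse from the group means, left and right tumors correlated at r = 0.96 in CD8+ and 0.869 in CD4+ cells, and other pairs of groups at -0.323 to 0.751.

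The segments and lists were chosen with earlier results of these data known. Text names the 3 segments, every clone of theirs at 1% or more of a tumor and the top clone of each segment and subset, their most frequent J partners and called pairs, and of other segments only TRBV1, TRBV4 and the highest and lowest. The tests of junction measures and of overlap with their counts over all segments, the fit of only the 2 groups compared, and the one-sided clones named were added after values had been seen. CDR3 sequences are printed as nucleotides only.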

Additional observations from a re-analysis of the deposited data

Results flagged for a closer look

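In 3 of 48 groups of 4 mice (6.25%) 1 mouse lay far from the others by Dixon's ratio, its gap to the next mouse divided by the range, where chance gives about 1 in 20. TRBV5 took more CD4+ dLN reads in mouse 8 (9.58%) than in the others (8.89% to 8.99%, ratio 0.849). TRBV5 made up more CD4+ tumor clones in mouse 5 (7.17%) than in the others (5.70% to 5.78%, ratio 0.945). The TRBJ1 share of TRBV3 in CD8+ dLN was highest in mouse 5 (ratio 0.873).

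The CD8+ minus CD4+ difference was not the same in tumor and dLN. By reads the contrasts differed by 1.34 for TRBV2 and 1.85 for TRBV5 on the log2 scale, and by distinct clones by 0.28 for TRBV2, 0.49 for TRBV3 and 0.56 for TRBV5, each past an adjusted p of 0.05 in limma. Tumor cells were not gated on CD44 and dLN cells were CD44hi, and the part of this gate in the differences was not tested.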

How the results depend on the processing

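Of 54 differences of the 3 members, 23 kept direction and call under every alternative, and of 669 recomputed values 614 kept both while 17 changed sign. Causes were not tested. Drawing no reads and requiring 2 reads per clone left the member calls as they were (54 of 54 each). Keeping all V segments, a pseudocount of 0.1%, defining clones by amino acids and removing clones 100 times higher in another repertoire were run for the shares of reads and clones only and did the same (30 of 30 each). So did the replicate block by mouse (54 of 54). With it the number of segments called for TRBJ1 share between CD4+ tumor and dLN moved from 1 to 2. Outside the members, TRBV30 lost its call for CDR3 length in that contrast (limma adjusted p = 0.0331, and 0.0560 with the block). At this depth, clones under a few thousandths of a percent could be missed in single libraries.

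In the fit of only the 2 groups compared, segments called by reads became 3 (CD8+ against CD4+ tumor, 12 in the fit over all groups), 20 (dLN, from 10), 8 (CD8+ tumor against dLN, from 16) and 5 (CD4+, from 2). By clones in CD8+ tumor against dLN they became 20 (from 12), and for TRBJ1 share 6 (CD8+ tumor against dLN, from 2) and 0 (CD4+, from 1). In it TRBV3 (-1.35) and TRBV5 (0.78) lost the call between tumor subsets by reads, TRBV2 (0.88) and TRBV3 (-0.90) the one between CD8+ tumor and dLN, and TRBV3 in dLN (-0.62) and TRBV5 by clones in CD8+ tumor against dLN (0.090) gained one. The exact permutation test was read at an unadjusted p under 0.05, so its counts cannot be set against the adjusted ones. By reads, 7, 20, 10 and 7 segments passed for the same 4 contrasts. TRBV3 at -1.35 and -0.90 and TRBV2 by clones at -0.11 did not pass, and TRBV3 in dLN (-0.62) and TRBV2 in CD4+ tumor against dLN (-0.46) did. On centred log ratios 10 segments were called in CD8+ tumor against dLN, and TRBV3 (-0.57) was not. Without the largest clone of each segment, TRBV3 was called in dLN (-0.63) and for the difference of contrasts (-0.88). At equal depth of 169338 reads, by clones, TRBV3 was called between tumor subsets (-0.14), while TRBV3 in CD8+ tumor against dLN (0.031) and the TRBV2 difference of contrasts (0.11) were not.

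Weighted by reads, CDR3 length was called for 11, 1, 2 and 1 segments and TRBJ1 share for 5, 0, 1 and 0 (tumor subsets, dLN subsets, CD8+ and CD4+ tumor against dLN). Signs changed for TRBV5 length between tumor subsets (-0.12) and in CD8+ tumor against dLN (-0.21), for TRBV2, TRBV3 and TRBV5 length in CD4+ tumor against dLN (-0.086, -0.078 and -0.073), for TRBV5 TRBJ1 share between tumor subsets (8.40 points), for TRBV2 and TRBV5 in CD8+ tumor against dLN (-11.9 and 10.6), and for TRBV3 and TRBV5 in CD4+ (-0.0096 and 1.88). Calls were also lost for the length of TRBV2 in dLN (0.31) and of TRBV2 (0.31) and TRBV3 (0.040) in CD8+ tumor against dLN, and for the TRBJ1 share of TRBV3 between tumor subsets (-11.4) and of TRBV2 (-5.40) and TRBV3 (-0.92) in dLN. Requiring 2 reads per clone left 1 segment called for TRBJ1 share in CD8+ tumor against dLN.

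Leaving out each mouse in turn gave these ranges. Reads between tumor subsets ran from -0.021 (without mouse 7) to 0.54 for TRBV2 and from -1.75 to -1.08 for TRBV3, which lost its call without mouse 6. In dLN, TRBV3 ran from -0.68 to -0.58 and was called without mouse 7. In CD8+ tumor against dLN, TRBV2 ran from 0.69 (call lost without mouse 5) to 1.07 and TRBV3 from -1.34 to -0.58 (called only without mouse 7), with 7 to 15 segments called. In CD4+ tumor against dLN, TRBV5 ran from -0.80 to -0.71 (call lost without mouse 8), with 1 to 3 segments called. Differences of contrasts ran from 1.08 to 1.60 for TRBV2 and from -1.14 (called, without mouse 7) to -0.41 for TRBV3, with 4 to 11 segments called. By clones, TRBV3 between tumor subsets ran from -0.040 to 0.017 (without mouse 5), and TRBV2 in CD8+ tumor against dLN from -0.13 to -0.092, called only without mouse 5. Without mouse 6 the length of TRBV3 in CD8+ tumor against dLN (0.069) lost its call, and without mouse 6 or 8 the TRBJ1 share of TRBV3 in dLN (-2.24 and -2.20). TRBV5 length in CD4+ tumor against dLN ran from -0.00061 to 0.021. The TRBJ1 share of TRBV5 ran from -0.63 to 0.48 points in CD8+ and from -0.93 to 0.30 in CD4+ tumor against dLN, with 1 to 3 and 0 to 2 segments called, and 5 to 10 segments were called between dLN subsets. Pairs called in dLN numbered 71 (without mouse 7) to 100, against 116 with all mice. The TRBV5 left and right difference in CD4+ tumors, between mice minus within, ran from -0.0094 to 0.030.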

Other observations

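A group of TRBV2 clones with one junction start took most TRBV2 reads in the CD8+ tumors of mouse 5 and a smaller part in the other mice. They were picked by the amino acids that follow the invariant start of the CDR3, which are Gln-Glu-Gly-Asp. The complete germline V end was not required. They were noticed in the data, so their values are a description with no test. They took 86.5%, 22.8%, 11.8% and 1.997% of TRBV2 reads in the CD8+ tumors of mice 5, 6, 7 and 8, but 2.63%, 0.897%, 0.734% and 0.756% of the distinct TRBV2 clones there. In CD8+ dLN the shares of TRBV2 reads were 8.83%, 1.56%, 0.428% and 1.55%, and in CD4+ tumors 0.189%, 0.393%, 0.0466% and 0. In single CD4+ dLN they ran from 0.0565% to 1.07%. In TRBV5, which has the same germline end, clones with this start took at most 0.0293% of TRBV5 reads in the CD8+ tumor of any mouse, and no TRBV3 clone had it. TRBV5 clones with this start also occurred in the other groups, for example 8 in the CD8+ dLN and 13 in the CD4+ dLN of mouse 7.

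Several clones had the start in each mouse, but the reads were unequally spread over them. The largest one took 60.4%, 57.1%, 94.7% and 92.4% of the TRBV2 reads with the start in the CD8+ tumors of mice 5, 6, 7 and 8, so in mice 7 and 8 nearly all of them came from 1 clone. Over both CD8+ tumors of a mouse, 11, 7, 13 and 7 TRBV2 nucleotide clones of mice 5, 6, 7 and 8 had it, with 8, 4, 9 and 2 different J segments. The largest one of each mouse and the next largest of mouse 5 are shown, with the bases between V and J in capitals. Smaller ones, among them clones of mouse 6 with a higher share than that of mouse 8, are not shown.
Mouse 5, TRBJ2-3: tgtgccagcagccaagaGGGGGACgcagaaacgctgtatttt
Mouse 5, TRBJ2-7: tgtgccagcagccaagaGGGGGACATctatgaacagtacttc
Mouse 6, TRBJ2-7: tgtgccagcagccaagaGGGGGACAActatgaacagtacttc
Mouse 7 and mouse 5, TRBJ2-1: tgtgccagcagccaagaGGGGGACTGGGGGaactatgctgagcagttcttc
Mouse 8, TRBJ2-7: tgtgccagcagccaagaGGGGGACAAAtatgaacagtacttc
Their shares of the left and right CD8+ tumor repertoire were 1.26% and 1.24% for the first, 0.616% and 0.600% for the next, 0.112% and 0.157% for that of mouse 6, and 0.0155% and 0.0257% for that of mouse 8. The TRBJ2-1 clone had the same nucleotides in mouse 7 (0.275% and 0.239%) and mouse 5 (0.156% and 0.190%). Whether it arose separately in these mice or passed between libraries was not tested.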
